A study of Mus musculus with 8 samples.

Results

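RBM45 peaks that recurred in both wild-type iCLIP libraries and lay in distal 3' UTRs numbered 809, of 16399 shared peaks in all (4.93%, 95% Wilson interval 4.61 to 5.28). A peak belonged to them if its midpoint stood in a 3' UTR of its own strand and in no coding sequence of the GENCODE M21 basic annotation (mm10), and more than 150 nt along the transcript from the stop codon in every basic transcript of the gene. A further 158 shared peaks stood in 3' UTRs closer to a stop codon, so that 83.7% of the 967 shared 3' UTR peaks were distal. The 809 peaks fell on 690 genes. Beyond the authors' peak threshold and the overlap of replicates, strength and sequence took no part in the choice.

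The 3' UTR is the stretch of an mRNA between the stop codon and the poly(A) tail. RNA-binding proteins and microRNAs act on it to set the stability, localisation and translation of the message, and its end is set by cleavage near a polyadenylation signal, most often AATAAA in DNA letters. RBM45 is an RNA-binding protein with several RNA recognition motifs that is expressed in the nervous system and is known to bind sequences with GAC. In iCLIP, protein is joined to RNA with UV light, the complex is pulled down with an antibody, and reverse transcription tends to stop next to the joined base.

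The libraries came from mHiPPoE-2, a transformed mouse hippocampal neuron line (strain Crl:CFW(SW)-024), in which mouse RBM45 with FLAG and HA tags was expressed from a lentivirus in every group, so that tagged and not native protein was pulled down, with an antibody against HA. Of the 8 libraries of the series, 2 belong to each of 4 groups: WT (wild-type) CLIP, WT input (size-matched, no antibody), and both kinds of library from cells with a knockout of Mettl3, the catalytic subunit of the mRNA m6A methyltransferase. Its stated purpose was to find RBM45 sites with and without m6A. Every value here was taken from the WT CLIP peaks of replicate 1 (387749 distinct) and replicate 2 (344700 distinct) and from the list of replicate 2 peaks that a replicate 1 peak covered by at least 50%. The depth is unknown, as no source used here gives the reads behind a peak, and intervals cover counting error only. The libraries of the knockout and of input were not compared, and peak lists give no expression level against which the neuronal label could be checked. Nothing in the labels says that replicates 1 and 2 came from separate cultures.

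The 12 strongest peaks, ranked by the lower of the folds in replicates 1 and 2, are shown by their sequence and do not stand for the weaker peaks. The central 30 bases of each are given 5' to 3' as DNA letters from the GENCODE M21 transcripts (GRCm38), with GAC in capitals.
Hsd17b11: cttgtactgtcggttttcatttacagtgtc
Ankra2: gagcttactGACttacccttacttactGAC
Nup98: gtccctcaagtagatttctcagtaacggtg
P2rx7: atGACctcaGACggatGACctcagttccat
Itsn1: tagttcattgcattccaaaaatattcactt
Bfar: gaaggagagagtcagagaGACttggtaatt
Tpm3: catggatattttctaacaataaaagcactg
Ptx3: tatattggaagaataacaaaacaagctctg
Pou3f3: ttatttctgGACtGACtccgataaaagggt
Bhlhe40: tatatgtagGACaataagttccttctGACa
Bbx: ttgcttggggcaaattgtggcaaatatttt
Brwd1: attcagcacaggtgccaaaatatgctttat
GAC stood in the centre of the Ankra2, P2rx7, Bfar, Pou3f3 and Bhlhe40 peaks. The other 7 had no GAC in these central bases, although those of the 12 that lay wholly inside a transcript all held one somewhere in the peak. The 12 peaks were 43 to 231 nt wide, against a median of 30 nt for the 809, and wider peaks hold a short motif more often. At a lower fold of 4 or more GAC stood in 56.8% of peaks (46.8 to 66.3). Windows of the same width in the same distal 3' UTRs held it in 48.1%.

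The strongest distal peak was in Hsd17b11, which encodes a steroid dehydrogenase of lipid droplets (chr5:103990024-103990243, minus strand). Its fold over background, as the authors' peak caller gave it, was 15.5 in replicate 1 and 17.8 in replicate 2. The peak of Ankra2, an ankyrin-repeat protein (chr13:98273315-98273403, plus strand), had folds of 36.1 and 15.01, the highest replicate 1 fold among the 809. In Nup98, a nucleoporin of the nuclear pore (chr7:102119895-102120080, minus strand), the folds were 15.1 and 14.1. The midpoints were 376 nt from the stop codon and 372 nt from the transcript end in Hsd17b11, 475 and 559 nt in Ankra2, and 466 and 590 nt in Nup98.

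P2rx7, an ATP-gated cation channel, had a peak with folds of 14.03 and 17.1 (chr5:122683388-122683445, plus strand). Itsn1, the endocytic scaffold intersectin, had one with folds of 19.4 and 13.8 (chr16:91828940-91829122, plus strand). Bfar, an apoptosis regulator of the endoplasmic reticulum with a ubiquitin ligase domain, gave 16.8 and 10.3 (chr16:13703405-13703591, plus strand). Tpm3, a tropomyosin of actin filaments, gave 11.4 and 10.03 (chr3:90098697-90098823, plus strand), with its midpoint 23 nt from the transcript end. These 7 genes held all the distal peaks at a fold of 10 or more in both replicates.

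The remaining 5 of the 12 had a lower fold between 9.20 and 9.75. They lay in the secreted pentraxin Ptx3 (chr3:66225476-66225651), the neural transcription factor Pou3f3 (chr1:42699720-42699762), the transcriptional repressor Bhlhe40 (chr6:108665498-108665540), the HMG-box protein Bbx (chr16:50196627-50196857, minus strand) and the bromodomain protein Brwd1 (chr16:96001955-96002092, minus strand). Bbx differed most between the replicates, with folds of 23.4 and 9.22, and Bhlhe40 least, with 10.4 and 9.34.

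**Figure D1:**
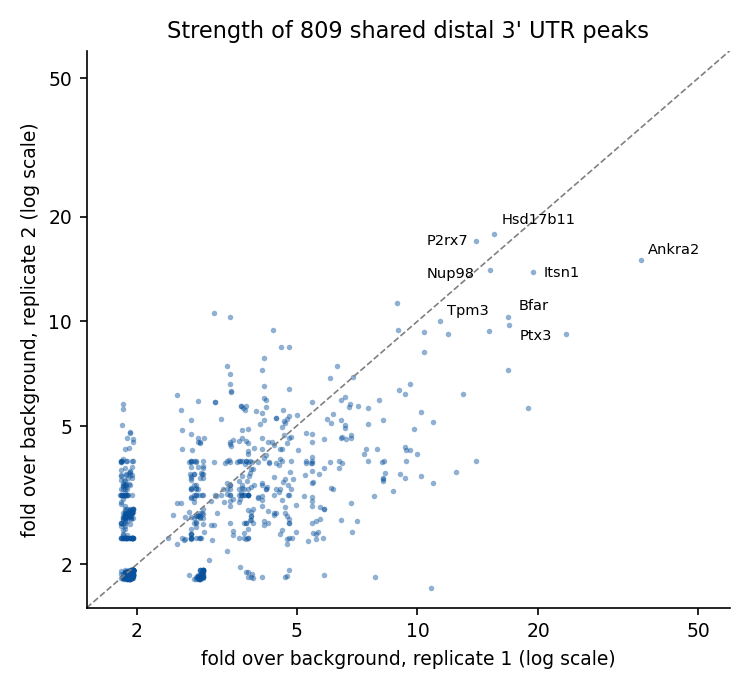
Fold over background of the 809 shared distal 3' UTR peaks in WT CLIP replicate 1 (horizontal) and replicate 2 (vertical), both on log scales, one point per peak, with the 8 strongest named and the dashed line marking equal folds. Most points lie below a fold of 5 in both replicates, and columns of points at low folds show that weak peaks take few distinct values.

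Most distal peaks were far weaker than these 12. The median fold was 2.81 in replicate 1 and 2.82 in replicate 2, and the lower of both had a median of 2.36, with a range from 1.71 to 15.5. It was under 2 in 397 of the 809 peaks, at least 3 in 250, at least 5 in 42 and at least 10 in 7. Across the 809 peaks the folds of the replicates had a Spearman correlation of 0.493, given as a description since peaks share libraries and neighbouring peaks share a transcript. Replicate 1 had the higher fold in 482 of them. The lower fold had a median of 2.71 in the 158 shared peaks near stop codons, 1.91 in the 660 of coding sequence and 1.92 in the 14338 of introns, so distal 3' UTR peaks stood between the first of these and the other two. In width, 442 of the 809 (54.6%) had the smallest width on file, 30 nt, and 26 were wider than 100 nt.

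Distal 3' UTR peaks recurred between replicates more often than peaks of coding sequence or introns, except among the strongest. Of the 10071 replicate 2 peaks in distal 3' UTRs, 1332 shared at least 1 bp with a replicate 1 peak of the same strand, or 13.2% (12.6 to 13.9), where 7.85% of replicate 2 peaks of every region did so. Near stop codons the share was 14.9%, in coding sequence 7.60% and in introns 7.68%. Taken from replicate 1, 9.53% of its distal peaks overlapped a replicate 2 peak, against 6.94% in every region.

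The excess held at equal strength in the weaker classes of replicate 2 peaks. With a −log10 p under 3.2 the share was 9.05% in distal 3' UTRs, 6.10% in coding sequence and 5.91% in introns. From 3.2 to 6 it was 17.8%, 10.1% and 11.4% in the same order. From 6 to 10 it was 30.996% (26.9 to 35.5), 21.1% and 28.4%, where the intervals of distal 3' UTRs and introns overlapped. At 10 or more the order against introns was turned, with 47 of 75 distal peaks (62.7%, 51.4 to 72.7) against 80.7% of 875 intronic peaks (77.9 to 83.2). In coding sequence it was 18 of 24 (75%, 55.1 to 88.0), with an interval that overlaps the distal one. Intronic peaks of that class had a median width of 75 nt and distal ones of 50 nt, and the part of width in the difference was not tested. Messenger level and read coverage along the transcript did not enter these shares.

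**Figure D2:**
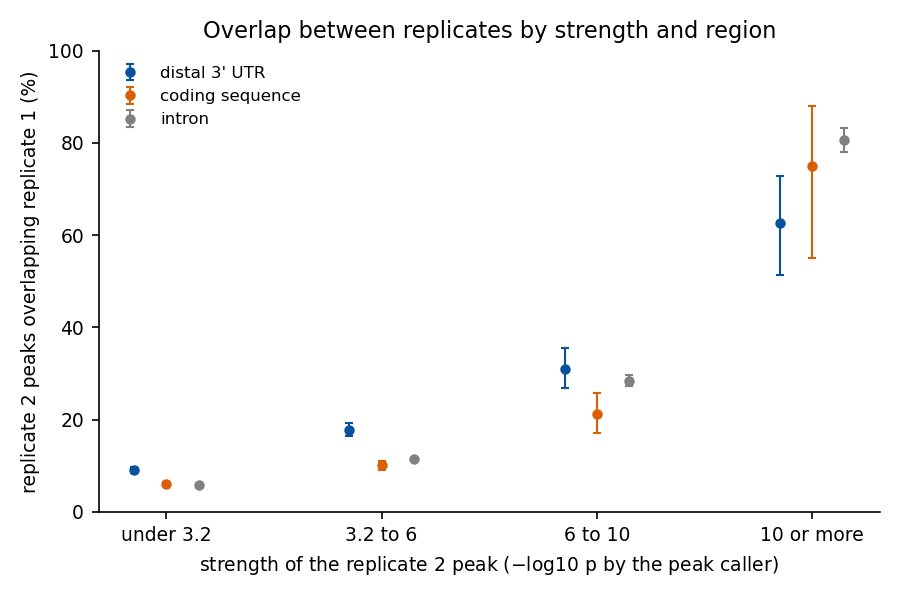
Share of replicate 2 peaks with an overlapping same-strand peak in replicate 1 (vertical, %), by class of −log10 p in replicate 2 (horizontal) and by region, with 95% Wilson intervals as bars. Distal 3' UTR peaks lie above coding sequence and introns in both classes under 6 and below introns at 10 or more, where the share is 62.7% against 80.7%.

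Along the 3' UTR the peaks were spread over the whole distal stretch and were densest at its end. The median distance of the midpoint was 817 nt from the stop codon (range 153 to 8097) and 596 nt from the annotated transcript end (range 3 to 38236), in 3' UTRs with a median length of 1884 nt. All 809 lay in the last exon. When each distal 3' UTR was cut into 10 equal parts, the last part held 17.7% of the peaks (15.2 to 20.5), against 10 for even placement, and the part next to the 150 nt limit held 11.9% (9.82 to 14.3). The 3 parts in the middle, the fifth to the seventh, held 7.17%, 7.29% and 7.42%.

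**Figure D3:**
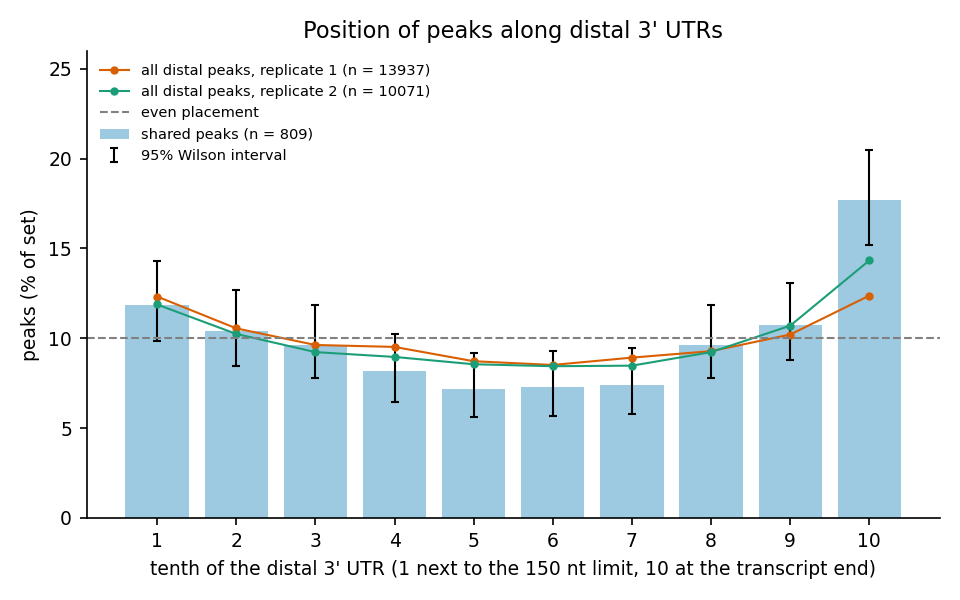
Share of peaks (vertical, %) in each of 10 equal parts of the distal 3' UTR (horizontal, from the 150 nt limit on the left to the transcript end on the right), for the 809 shared peaks as bars with 95% Wilson intervals and for all distal peaks of replicates 1 and 2 as lines, with even placement dashed. The last part holds 17.7% of the shared peaks, and both single-replicate lines also rise there.

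Within 150 nt of the transcript end there were 193 of the 809 peaks, or 23.9% (21.05 to 26.9). Even placement along the same 3' UTRs would put 15.4% there, so that the share was 1.55 times the even one. Within 50 nt of the end it was 88 peaks, 10.9% against 5.53%, or 1.97 times. The first 150 nt after the limit near the stop codon held 14.7%, which is 0.957 times even placement. In the 615 peaks of 3' UTRs over 1000 nt the share within 150 nt of the end was 14.8% against 7.51%. The first 150 nt after the limit held 9.27% of these 615 (7.22 to 11.8), or 1.23 times even placement, with an interval that holds the even value. Peaks with a lower fold of 3 or more had 22.4% (17.7 to 28.0) against 16.4%, or 1.37 times. All distal peaks of single replicates were nearer to even placement, at 1.2017 times in replicate 1 (14.5% of 13937) and 1.34 times in replicate 2 (18.1% of 10071).

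The 5 peaks nearest to a transcript end had midpoints 3 to 11 nt from it. They were in Tsen34, a subunit of the tRNA splicing endonuclease (3 nt, folds 1.83 and 3.95), Tti2, a cofactor in the folding of large kinases (4 nt, 5.48 and 3.44), the spliceosomal helicase Snrnp200 (10 nt, 2.84 and 3.29), the elongator subunit Elp5 (11 nt, 1.93 and 1.87) and Insig1, a membrane protein of sterol regulation (11 nt, 5.60 and 2.67). The 5 farthest lay 7748 nt to 38236 nt from the end, in Zfp871, the nuclear transport receptor Xpo7, the cap-binding protein Ncbp3, the TATA-binding protein Tbp and D1Ertd622e. Of these the Zfp871 peak was the strongest, with folds of 4.55 and 4.29. The other four had a lower fold between 1.82 and 2.76. A long annotated 3' UTR need not be the one used in these cells, since 187 of the 809 peaks (23.1%) lay beyond the end of a shorter transcript of the same gene with the same stop codon. With the shortest 3' UTR that holds each midpoint, 29.3% lay within 150 nt of the end and the ratio to even placement was 1.61.

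At the 150 nt limit, peaks just inside were 153 nt from their nearest stop codon, in Cchcr1 (folds 1.90 and 2.38) and in a weak peak of P2rx7 (1.87 and 2.58). The 3 just outside were in Vps72 at 146 nt (2.81 and 3.56), Kdm5b at 147 nt (1.89 and 1.84) and Trmt112 at 147 nt (2.83 and 2.76).

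Sequence was read for the 796 peaks that lay wholly inside a transcript, beside the share that windows of the same width would give at every place in the same distal 3' UTR. U-tracts of 5 or more, TTTTT in the DNA letters used here, stood in 158 peaks, or 19.8% (17.2 to 22.8), against 12.2% of such windows. Windows 200 nt up or downstream gave 10.3%. Of the strongest peaks with a U-tract, 5 are shown in a window of 30 bases about it, every run of 5 or more T in the window in capitals.
Ptx3: cgattgtgtgacTTTTTTTTTTTTTTattt
Pou3f3: taacaTTTTTTaTTTTTTatttctggactg
Bbx: ttacaatctgaaTTTTTTTcttagccttga
Pfn1: ttttgggtttcaTTTTTTgTTTTTTggtct
Rasa1: cttgctgtatacTTTTTaaaaatactgtgc
The window of Ptx3 lies at chr3:66225488-66225517, that of Pou3f3 at chr1:42699710-42699739, that of Bbx at chr16:50196773-50196802 (minus strand), and those of Pfn1, the actin-binding profilin, and Rasa1, an inhibitor of Ras, at chr11:70651893-70651922 and chr13:85215542-85215571 (both minus strand). In Pou3f3 the peak starts at 42699720, the last base of the earlier run, so that only the later run lies inside it. The Pfn1 peak had folds of 8.95 and 9.46, and the Rasa1 peak had 8.89 and 11.3.

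U-tracts were found more often than in the same 3' UTR at every strength. They stood in 11.8% of peaks with a lower fold under 2 (8.36% of windows of equal width), in 26.4% (21.8 to 31.5) from 2 to under 4 (14.1%) and in 31.6% (23.1 to 41.5) at 4 or more (21.7%). Replicate 2 distal peaks without any overlapping replicate 1 peak had them in 10.8% (10.2 to 11.5), against 8.38%. Among all bases of the 796 peaks 35.1% were T, against 30.4% of the same 3' UTRs, and 539 peaks had more T than their 3' UTR while 257 had less. G and C were lower, at 18.4% against 22.0% and 18.7% against 21.2%. In the 510 shared peaks of coding sequence that were read, TTTTT stood in 2.35% against 2.14%, and in 156 near stop codons in 28.8% against 15.8%.

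GAC was not more frequent in the 796 peaks than in their own 3' UTRs. It stood in 34.7% (31.4 to 38.0), against 35.1% of equal windows and 34.1% of windows 200 nt away. By strength, it went up in peaks and in equal windows of their 3' UTRs alike: 28.2% against 29.9% at a lower fold under 2, 36.0% against 37.6% from 2 to under 4, and 56.8% (46.8 to 66.3) against 48.1% at 4 or more, where the interval still held the value of the 3' UTR. By width, it was 26.1% against 27.2% in peaks of 30 nt and 45% against 44.6% in wider ones. Near stop codons GAC stood in 47.4% (39.8 to 55.2) of 156 shared peaks against 36.7%, and in coding sequence in 42.4% against 41.5%. DRACH, the consensus around methylated adenosines (D stands for any base but C, R for a purine, H for any base but G), was in 50.5% of the distal peaks and 51.0% of equal windows. The core of AU-rich decay elements, ATTTA, was in 8.92% (7.13 to 11.1) against 7.03%. Motifs were searched on the transcript strand alone.

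The polyadenylation signal AATAAA stood in 63 of the 796 peaks, 7.91% (6.23 to 10.00), against 4.33% of equal windows. Near the transcript end it was in 37 of 180 peaks within 150 nt, or 20.6% (15.3 to 27.0), against 6.46% over the whole of the same distal 3' UTRs, while the 616 peaks farther away had it in 4.22% against 3.71%. These 180 are the ones read whole of the 193 peaks within 150 nt. Every peak of the 809 that was not read whole lay in this group. The same 180 peaks had TTTTT in 27.2% (21.2 to 34.1) against 14.8% and GAC in 26.7% (20.7 to 33.6) against 36.4%, so that peaks at the end were richer in U-tracts and poorer in GAC than their 3' UTRs. These shares too are set against the whole distal 3' UTR and not against its last 150 nt. The 616 peaks farther away had TTTTT in 17.7% (14.9 to 20.9) against 11.4%. They had GAC in 37.0% (33.3 to 40.9) against 34.7%, with an interval that holds the latter. In the 37 peaks the first AATAAA began a median of 26 nt before the annotated end, and in 28 of them between 10 and 35 nt before it. Signals near the end are a general property of 3' UTRs, so the windows of the whole 3' UTR are no measure of what an even choice within the last 150 nt would give. Among the peaks wholly inside a transcript, the 5 strongest with a signal within 150 nt of the end are shown to give its setting, the signal in capitals. A stronger peak, that of Itsn1 described above, holds AATAAA too but lies 3322 nt from the end and is left out here for that distance. The Tpm3 peak, stronger than that of Pfn1, also holds AATAAA in its central bases given above, with its midpoint 23 nt from the end. It was not wholly inside a transcript, so it is missing from these counts and from the sequences below.
Bfar: aaaattacttgaAATAAAaaaagattttta
Pfn1: tttttttttctgAATAAAaaaagattctac
Dusp1: tttatacaacagAATAAAttatgacgtttc
Fhl1: ttgtatccttacaaaAATAAAgcagcatag
Gm20716: tttaagcatctaAATAAAttgctgtattgt
They lie at chr16:13703572-13703601 (plus strand), chr11:70651853-70651882, chr17:26505597-26505626 (both minus strand), chrX:56793309-56793338 (plus strand) and chr2:168180998-168181027 (minus strand). The signal began 29, 21, 25, 15 and 30 nt before the transcript end in the same order. Dusp1 encodes a MAP kinase phosphatase of the immediate early response and Fhl1 a LIM-domain protein, and in Pfn1 the signal stands a few bases after a U-tract.

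TGTANATA, the site of Pumilio proteins, which repress and destabilise messages, stood in 20 of the 796 peaks, 2.51% (1.63 to 3.85), against 0.951% of equal windows and 0.780% of windows 200 nt away. Replicate 2 distal peaks that overlap no replicate 1 peak had it in 1.28% (1.06 to 1.54) against 0.748%. The site was therefore more frequent in the shared peaks than in their 3' UTRs, on few peaks. By width it was in 1.15% (0.491 to 2.66) of peaks of 30 nt against 0.666%, and in 4.17% (2.54 to 6.76) of wider ones against 1.29%. At a lower fold of 4 or more it was in 2.11% (0.579 to 7.35) against 1.54%. In peaks of 30 nt and in those of fold 4 or more the interval held the value of the 3' UTR. The 5 strongest are shown with the site in capitals.
Bbx: gcttctcacggtTGTAGATAttacttcagt
Nrf1: tatatgtatatgTGTACATAtggacataca
Dusp1: actgtactatctTGTAAATAgacccagagc
Zfp451: tttgtgctattaTGTAAATAatgaatggaa
Cebpd: ccgacagactttTGTAGATAagaggaagag
Their places are chr16:50195828-50195857 (minus strand), chr6:30151971-30152000 (plus strand), chr17:26505768-26505797 and chr1:33761978-33762007 (both minus strand) and chr16:15888373-15888402 (plus strand). The folds were 6.76 and 5.68 in Bbx, 4.80 and 8.44 in the transcription factor gene Nrf1, 3.96 and 5.51 in Dusp1, 3.81 and 3.58 in Zfp451, and 8.20 and 3.55 in Cebpd, a transcription factor of the C/EBP family. A match is a description of the letters and not a measured site of another protein.

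Uridine was concentrated at the 5' edge of the peaks. At the base just upstream of the edge, position −1, 56.7% of 787 peaks (53.2 to 60.1) had uridine by the replicate 2 edge, against a mean of 31.9% over positions −40 to −31. By the replicate 1 edge of the same peaks it was 56.6% of 793 (53.1 to 60.03), against 30.5%. From −10 to −2 the mean was 41.3% and 40.5%, from 2 to 10 nt inside the peak it was 37.9% and 38.1%, and from 31 to 40 nt inside it was 31.03% and 33.1%. Uridine was thus highest next to the edge and raised on both sides of it. A lower rise reached farther upstream, with 35.7% and 33.4% at position −20 by the edges of replicates 2 and 1. The edges of the replicates were not the same positions in most peaks: 52 of 809 (6.43%) had the same 5' edge in both, and 456 (56.4%) had edges within 10 nt of each other.

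The uridine at the edge was not particular to shared or distal peaks. Replicate 2 distal peaks without an overlapping replicate 1 peak had 51.1% (50.1 to 52.2) at −1, against 29.5% from −40 to −31, and shared peaks of coding sequence 46.7% (42.6 to 50.8) against 22.7%. It was also not a mark of strength. With a lower fold of 4 or more, 46.9% (37.2 to 56.8) and 42.7% (33.3 to 52.7) had uridine at −1 by the edges of replicates 2 and 1, and the highest value, 55.2% and 52.1%, stood at −2. With a lower fold under 2 it was 54.3% and 60.6% at −1. The strand on file may come from the gene annotation, in which case the 5' edge is that of the annotated strand.

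**Figure D4:**
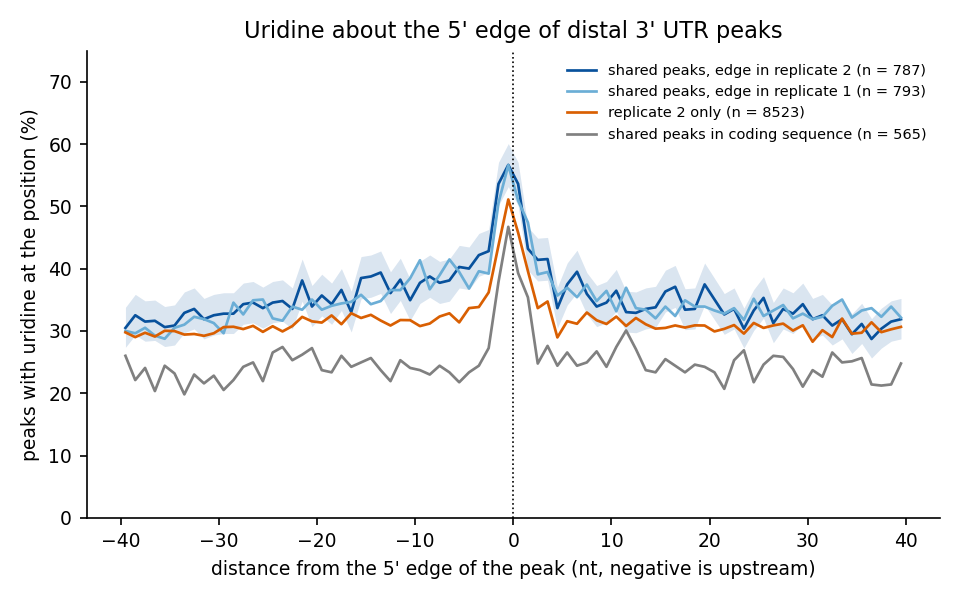
Share of peaks with uridine (vertical, %) at each position from 40 nt upstream to 40 nt downstream of the 5' edge (horizontal), for the shared distal peaks by the edge of each replicate, for distal peaks of replicate 2 alone and for shared coding-sequence peaks, with the 95% Wilson interval of the shared distal peaks by the replicate 2 edge shaded. Each line is highest at the base before the edge, at 56.7%, 56.6%, 51.1% and 46.7%.

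The 690 genes had 3' UTRs with a median length of 1843 nt. This is longer than the 1117 nt of all 18871 genes with a distal 3' UTR, but shorter than the 2169 nt of the 2954 genes that had distal peaks in both replicates and no shared one. Most genes, 609, had 1 shared distal peak, 58 had 2, 13 had 3, and 10 had 4 or more. Peaks of a gene were not all separate events, since the 809 peaks rested on 794 distinct replicate 1 peaks.

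Itsn1 had the most, with 6 shared peaks spread over 2208 nt of its 3' UTR. Their folds ran from 3.82 to 19.4 in replicate 1 and from 3.63 to 13.8 in replicate 2, each on a replicate 1 peak of its own. P2rx7 had 5 over 556 nt, on 4 replicate 1 peaks, and its other peaks reached at most 4.48 in replicate 2, far below the 17.1 of the strongest. Thbs1, the secreted matrix protein thrombospondin, had 5 on 5 replicate 1 peaks over 1237 nt, with folds of 2.47 to 7.85 in replicate 1 and 1.84 to 5.33 in replicate 2. Fam160b1 had 5 over 403 nt on 3 replicate 1 peaks, at most 4.74 and 3.37.

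The genes with 4 were Bfar, the zinc-finger transcription factor gene Plagl1, Syne3, which links the nuclear envelope to the cytoskeleton, Gm20716, the kinase gene Csnk1e and Slc23a2, a vitamin C transporter gene. In Plagl1 the widest of the 809 peaks, 459 nt (chr10:13131069-13131527, plus strand), had folds of 9.002 and 6.35. In Bfar 2 of the 4 shared a replicate 1 peak with a fold of 16.8, and in Syne3 a pair shared a replicate 1 peak with a fold of 10.95. The 4 peaks of Gm20716 lie as well in the 3' UTR of Adnp, a neuroprotective homeobox protein gene, so the transcript cannot be told apart. Their distances from the stop codon were read on an annotated nonsense-mediated decay transcript of Gm20716, which ends at the same base as Adnp. The folds of these 4 were 4.24 to 5.60 in replicate 1 and 2.45 to 4.50 in replicate 2.

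By function, genes were counted in lists of named factors, among those with distal peaks in both replicates, of which 686 of 3640 (18.8%) had a shared one in a distal 3' UTR. These counts are descriptions, and the lists are short and do not hold every gene of their kind. The lists were chosen with earlier results of these data known, so an interval apart from the 18.8% is no test. Of 21 genes for RNA-binding proteins and mRNA decay factors 9 had a shared peak (42.9%, 24.5 to 63.5). Larp1, a regulator of the translation of ribosomal protein messages, had 2, with folds of 6.90 and 6.91 (chr11:58061125-58061191, plus strand) and 8.002 and 5.93. Zfp36l1 and Zfp36l2, which bind AU-rich elements and promote decay, had folds of 6.15 and 3.29, and of 4.68 and 3.52 for the stronger of the Zfp36l2 peaks. The Zfp36l1 peak lies under an exon of the opposite strand, so its gene is uncertain. Celf1 (4.52 and 3.23), the polyadenylation factor Cpeb1 (6.84 and 2.997), Pcbp1 (3.87 and 3.94) and the microRNA silencing scaffolds Tnrc6a (1.87 and 2.38) and Tnrc6c (1.95 and 3.53) were also among them. The midpoint of the Pcbp1 peak, which held AATAAA, was 59 nt from the transcript end, and the Tnrc6a and Tnrc6c peaks were among the weak ones with a lower fold under 2.

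Of 11 genes of the extracellular matrix 6 had one (54.5%, 28.0 to 78.7, against 18.8% of all genes). Among them were Thbs1, the basement membrane collagen Col4a1 (4.46 and 3.92), tenascin C or Tnc (9.06 and 3.63), fibronectin or Fn1 (3.62 and 3.088) and Ccn1 (3.61 and 1.96). The Tnc peak was 13 nt from the transcript end.

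Of 25 transcription factor genes 5 had one (20%, 8.86 to 39.1, an interval that holds the 18.8% of all genes). Jun, a subunit of AP-1, had 3 shared peaks between 379 and 609 nt from the stop codon, with folds of 9.79 and 4.91 in the strongest (chr4:95049725-95049754, minus strand). Klf6 had 2, of which the one nearer to the stop codon differed most between replicates, at 3.12 and 10.5. Hmga2, an architectural chromatin protein and let-7 target, had folds of 4.16 and 5.19. Bach1 and Pbx3 had weak peaks, with a lower fold of 1.83 in each.

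Of 19 ubiquitin ligase genes 5 had one (26.3%, 11.8 to 48.8, which holds the 18.8% of all genes). These were Herc2, with 2 peaks on 1 replicate 1 peak (7.52 in replicate 1, 5.06 and 5.64 in replicate 2), the p53 inhibitor Mdm4 (4.10 and 3.37), and Smurf1, Pja2 and Trim2 with a lower fold between 1.87 and 1.89. Of 17 genes of the cytoskeleton and vesicle transport 5 had one (29.4%, 13.3 to 53.1, which holds the 18.8% too). They were the spectraplakin Macf1 (6.84 and 4.62), beta-actin or Actb (10.2 and 3.60), the small GTPase Arf6 (5.47 and 3.05), the myosin Myh9 (3.06 and 2.60) and tau or Mapt (1.89 and 3.62). Of 23 kinase and phosphatase genes none had one, of 13 synaptic and axon guidance genes none, and of 5 genes of the m6A machinery none. For a count of 0 the upper 95% Wilson bound was 14.3% of 23 genes, 22.8% of 13 and 43.4% of 5, of which only the first lies below the 18.8% of all genes. Csnk1e, Dusp1 and the kinase gene Map2k7 (12.99 and 6.19 in the stronger of its peaks), named here after their values were seen, are outside that list and had shared distal peaks. So did further kinase and phosphatase genes outside it, among them Akt2, Fyn, Cdk14, Limk1, Sgk1, Aurka, Ptpn1 and Dusp10. The 0 of 23 therefore describes the listed genes and not kinases and phosphatases as a class.

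Some peaks were ambiguous in strand or in copy number. Of the 809 intervals, 47 stood on both strands of the deposited list, 87 lay under a gene of the opposite strand and 32 under an exon of it. Without the peaks on both strands or under such an exon 750 were left, with 1.53 times even placement near the end and TTTTT in 19.9%. The central 30 bases occurred in a transcript of another gene in the same orientation for 5 of 801 peaks (0.624%) and as the reverse complement for 35 (4.37%).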

How the data were processed

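Peaks of WT CLIP replicates 1 and 2 were analysed as the authors deposited them. MACS2 (version 2.1.1.20160309) is among the tools in the submitters' processing notes, beside the aligner Novoalign (version 3.09.00), HOMER (4.11.1), deepTools (3.2.1) and bedtools (2.25.0). The build they name is mm10. The sources used here do not give settings, the control of the peak caller or the way peaks got a strand. Each deposited peak carries the authors' score, a fold, which is the ratio of pileup to the caller's background, and a −log10 p. Repeated lines of a peak were removed.

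Peaks were placed by midpoint on GENCODE M21 basic. Position was read on the transcript with the longest 3' UTR holding the midpoint. Even placement and equal-width windows were computed over all places in the same distal 3' UTRs, with no draws. The motif shares of equal-width windows were checked on simulated peaks placed evenly in 1500 transcripts. Intervals are 95% Wilson intervals. No p-value was computed, since 2 libraries of 1 group allow no test. The work used bedtools 2.31.1 and Python 3.11.15 with scipy 1.17.1, pandas 2.3.3 and numpy 2.4.6.

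The members and gene lists were chosen with earlier results of these data known. Genes were named by rule: the 12 highest lower folds, the genes with most peaks, the 5 nearest to and farthest from the end, 3 on each side of the limit, and list genes, of which some are not reported here. Sequences shown for a motif are the strongest with it among peaks wholly inside a transcript, and for AATAAA also within 150 nt of the transcript end. The profile about peak edges and the alternative without strand-ambiguous peaks were added after the data were seen. The 8 library columns of a deposited count table match no label and were not used, so the count tests planned on them were not run.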

Additional observations from a re-analysis of the deposited data

How the results depend on the processing

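The distal 3' UTR peaks were 4.15% of shared peaks with a limit of 300 nt. With a −log10 p of 5 or more in both replicates they were 149 peaks and 7.13% of shared peaks of that strength. The excess near the transcript end was then 1.34 times even placement (0.990 to 1.78, which holds 1), TTTTT stood in 30.1% of peaks (15.8% of windows 200 nt away), GAC in 52.1% (50.5%) and AATAAA in 10.96% (7.92%), the last with an interval of 6.86 to 17.1 that holds the value of the windows. The peaks of that strength are wider, and the part of width in these shares was not tested. With the shortest 3' UTR that holds the midpoint 29.3% of peaks lay within 150 nt of the end. Windows 500 nt away held AATAAA in 1.96%. Overlap of distal replicate 2 peaks fell to 6.41% where 50% of both peaks had to be covered, and was 9.53% with replicate 1 as the base.

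With a single replicate list in place of the shared one, distal peaks were 2.92% to 3.59% of all, 14.5% to 18.1% of them lay within 150 nt of the end (1.2017 to 1.34 times even placement), and peaks and windows held TTTTT in 11.86% to 11.88% and 7.76% to 8.64%, GAC in 29.7% to 30.3% and 30.0005% to 30.8%, and AATAAA in 4.37% to 5.70% and 2.36% to 2.63%. The excess of TTTTT and AATAAA over windows, and of peaks near the end over even placement, had the same sign in each setting run, but at a −log10 p of 5 or more the intervals of the end excess and of AATAAA do not separate them from even placement and from windows. GAC stood in fewer peaks than windows in the replicate 2 list. No paired analysis was possible because the results come from no test and the count table's columns match no sample. The count tests planned, with their block, normalization, filter and leave-one-out alternatives, were therefore not run.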
